A study of Homo sapiens with 3 samples.

Results

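Gene expression was measured in LS174T-tetON-NICD cells that received human recombinant TNF at 50 ng/ml together with doxycycline at 100 ng/ml for 24 h, and was set against untreated cells of the same line. LS174T is a mucin-producing human colon carcinoma line, and per the labels the derivative overexpresses the Notch intracellular domain (NICD) when doxycycline is added. The comparison was chosen as the sample that received both agents, which is 1 of the 3 arrays of the series. On the other arrays the treated cells had received TNF alone at 50 ng/ml or doxycycline alone at 100 ng/ml, also for 24 h. Treated RNA was labelled with Cy3 and untreated RNA with Cy5 on each array, so dye and treatment cannot be told apart. Each condition had 1 culture and 1 array, so no value below has a replicate check and no test was possible. Both channels carry the inducible construct, and doxycycline-treated cells without it were not among the samples, so NICD and doxycycline itself cannot be told apart. Whether the line is 1 clone, and whether the untreated RNA of the 3 arrays is the same RNA, is not given in the sources used here. Of 17559 genes with a probe on the array, 15371 were measured, meaning that a probe was above the 95th percentile of the blank spots in at least 1 channel.

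TNF binds its receptors and releases NF-kB dimers from their IkappaB inhibitors. The dimers enter the nucleus and switch on genes for cytokines, chemokines and survival factors, and also for their own inhibitors. Notch receptors are cleaved after binding a ligand on a neighbouring cell, and the freed intracellular domain joins the DNA-binding protein RBPJ to activate genes such as those of the HES and HEY repressors. In the intestinal epithelium, Notch activity is known to favour absorptive over secretory fates, and TNF is a central cytokine of inflammatory bowel disease.

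Signals are spot intensities less the trimmed mean of the blanks of that channel, in scanner units. A log2 ratio is treated over untreated after background correction and loess normalisation, so it is not the plain quotient of both signals. The offset of 50 used in that correction pulls the ratios of dim genes towards 0, and the median treated signal of 61.7 was above the median control signal of 30.6. A ratio is given as "at least" where the control was not above the blanks or the treated spot was saturated. Levels of different probes are not set against each other.

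The array gave 476 genes at least 2-fold higher with both agents, which is 3.1% of the genes measured, and 309 genes at least 2-fold lower, which is 2.01%. The counts of list members given below for this array are to be read beside these shares, and counts of 1 or 2 members can lie near them. At 4-fold the counts were 133 higher (0.865%) and 22 lower (0.143%), and at 8-fold they were 48 higher (0.312%) and 4 lower (0.026%). Higher genes were 60.6% of all genes past 2-fold with loess, 88.0% with plain median centring of the offset signals and 60.7% in the authors' deposited table, whose values are median-centred without an offset. Median centring moved the median of all genes by 0.104 on the log2 scale. On the single-agent arrays, 264 genes (1.77%) were at least 2-fold higher and 1787 (12%) lower with TNF, and 173 (1.14%) were higher and 59 (0.389%) lower with doxycycline.

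The TNF array stood apart from the others. Its median treated signal was 18.6, against 55.7 with doxycycline and 61.7 with both, and its probes of 1 gene differed with a pooled SD of 0.730 on the log2 scale, against 0.236 and 0.290. Its ratios, the low ones above all, are therefore given below as values only. The control channel of the combined array differed from that of the TNF array with an SD of 0.142 over 14676 genes and from that of the doxycycline array with an SD of 0.0840 over 14853 genes. Colon epithelial markers were present: all 12 that are on the array were above background in both channels, with KRT18 at 30663. Their signals summed to 86275.6 in the treated and 41428.5 in the control channel, before normalisation. Markers of lymphocytes, macrophages, endothelium, fibroblasts and muscle summed to 1420 in the treated and 479 in the control channel, also before normalisation. Of the 22 on the array, 8 were below background in both channels, among them PTPRC, CD163 and COL1A1, and CD68 read 554. CD68, a lysosomal protein of macrophages, was the only one of them at least 2-fold higher (1.19, and 1.21 with TNF). The labels name only LS174T-tetON-NICD cells as the source, and what gives these marker signals was not tested.

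**Figure D1:**
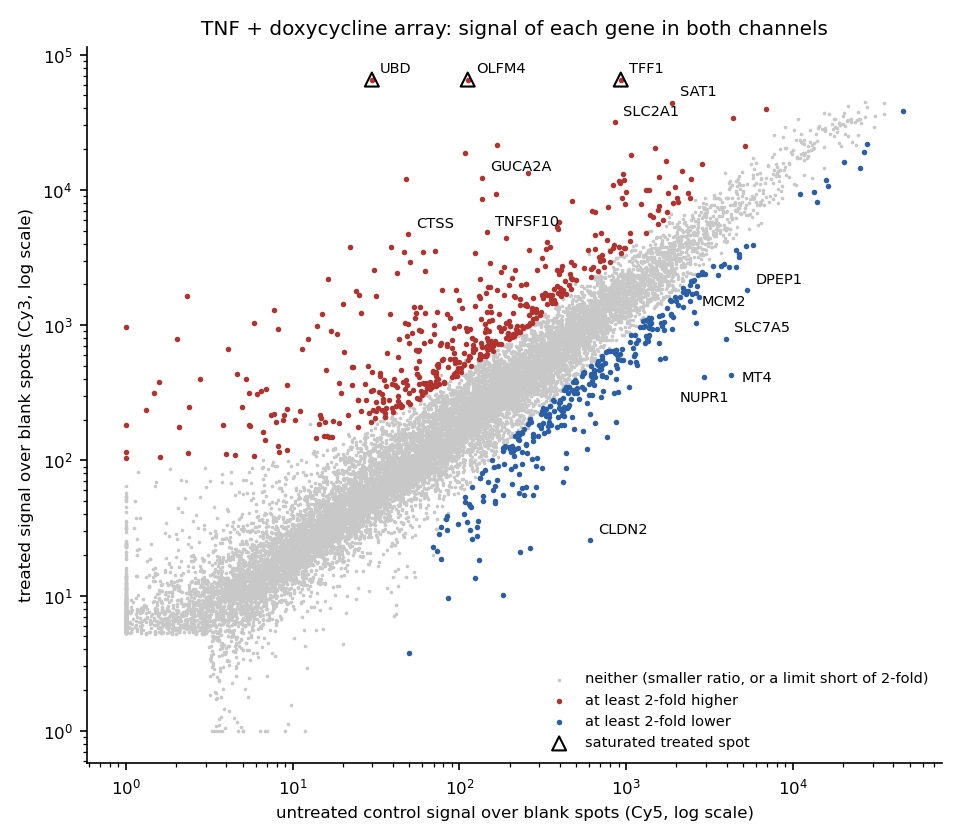
Signal of each of 15371 genes on the combined array, with the untreated control (Cy5) on the x axis and the treated sample (Cy3) on the y axis, both over the blanks on log scales. Red points are the 476 genes at least 2-fold higher and blue points the 309 at least 2-fold lower, triangles mark the 3 saturated treated spots (UBD, OLFM4, TFF1), and 326 genes with a signal under 1 are drawn at 1.

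The genes that mark the combined condition were UBD, OLFM4, GUCA2A, CTSS and TNFSF10. UBD encodes FAT10, a ubiquitin-like modifier that sends proteins to the proteasome. Its treated and control signals were 1059 and 3.36 with TNF, 140 and 1.85 with doxycycline, and 65471 and 29.8 with both. The treated spot was saturated with both agents, so the ratio there was at least 449-fold, a log2 ratio of at least 8.81, beside 4.28 with TNF and at least 1.43 with doxycycline. Both UBD and OLFM4 were saturated, so their order is not known. OLFM4, a secreted glycoprotein that marks human intestinal stem cells and is a known Notch target, had treated and control signals of 16.4 and 72.4 with TNF and 23319 and 66.9 with doxycycline. With both agents its spot was saturated at 65471 over 112, at least 225-fold (log2 at least 7.82), beside −0.66 with TNF and 6.73 with doxycycline. OLFM4 was thus high on both arrays with doxycycline and not on the array with TNF alone.

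GUCA2A encodes guanylin, a peptide of colon enterocytes that activates guanylate cyclase C. Its signals were 11.5 treated and 13.5 control with TNF, 400 and 13.8 with doxycycline, and 12346 and 137 with both. The log2 ratios were 0.04, 2.21 and 5.23 in that order, the last being 37.4-fold. CTSS encodes cathepsin S, the endosomal protease that trims the invariant chain of MHC class II. Its signals were 102 treated and 18.3 control with TNF, 218 and 18.0 with doxycycline, and 4727 and 49.3 with both, for log2 ratios of 1.30, 1.46 and 4.77 (27.3-fold with both). TNFSF10 encodes TRAIL, a death-receptor ligand, and its signals were 426 and 176, 668 and 148, and 4873 and 147 in the same order. Its log2 ratios were 0.94, 1.11 and 3.84, the last being 14.3-fold. For these 3 genes the treated signal with both agents was above the treated signal of either single-agent array.

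The control spots of UBD, OLFM4, GUCA2A and CTSS were brighter on the combined array than on the others, and that of GUCA2A read 137, against 13.5 and 13.8. The control spot of TNFSF10, at 147, was not, nor were those of BIRC3 and SLC2A1 among the 15 highest genes. With the median control level of the 3 arrays in its place, the log2 ratios became at least 9.51 for UBD, at least 8.32 for OLFM4, 6.96 for GUCA2A and 5.48 for CTSS, while TNFSF10 stayed at 3.84. The part of the other channel's brightness in these control values was not tested.

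**Figure D2:**
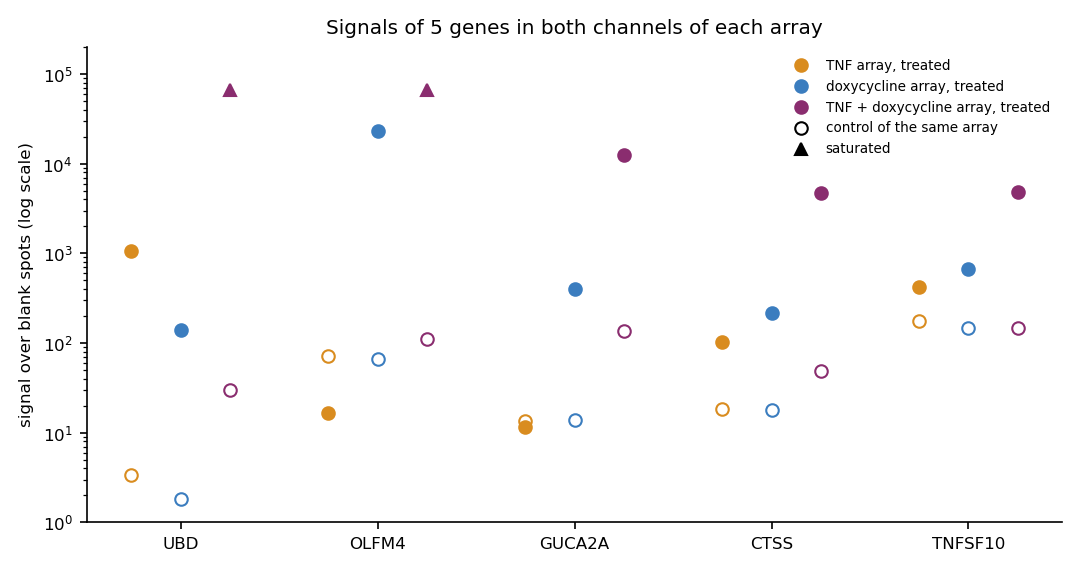
Signals of UBD, OLFM4, GUCA2A, CTSS and TNFSF10 over the blanks (log scale) on the TNF, doxycycline and combined arrays, filled for the treated and open for the control channel, with triangles for saturated spots. For every gene the highest treated point is that of the combined array, and UBD and OLFM4 lie at the scanner's limit.

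Promoter windows of 3 of these genes show a motif of each kind searched for in the higher genes. The windows run from 250 bases before to 50 bases after the start site (RefSeq, GRCh38.p14), 5′ to 3′ along the gene, with the match in capitals. UBD at chr6:29559683-29559982 on the minus strand holds 1 kappaB match, the NF-kB consensus, whose nearest base to the 5′ end lies 53 bases before the start site. OLFM4 at chr13:53028563-53028862 on the plus strand holds GTGGGAA, the RBPJ consensus, at the very edge of the window, 250 bases before the start. TNFSF10 at chr3:172523381-172523680 on the minus strand holds the core of the interferon response element, a pair of GAAA with any 2 bases between them, on the opposite strand 187 bases before the start. The GUCA2A window held a kappaB match that reads on both strands, and the CTSS window held none of the 5 motifs. A match is a description of these letters only.
UBD: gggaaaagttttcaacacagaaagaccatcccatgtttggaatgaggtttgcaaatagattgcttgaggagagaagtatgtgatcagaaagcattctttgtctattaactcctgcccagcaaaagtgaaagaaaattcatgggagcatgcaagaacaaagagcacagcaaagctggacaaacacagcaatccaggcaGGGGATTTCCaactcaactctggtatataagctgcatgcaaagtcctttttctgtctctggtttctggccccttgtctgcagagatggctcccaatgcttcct
OLFM4: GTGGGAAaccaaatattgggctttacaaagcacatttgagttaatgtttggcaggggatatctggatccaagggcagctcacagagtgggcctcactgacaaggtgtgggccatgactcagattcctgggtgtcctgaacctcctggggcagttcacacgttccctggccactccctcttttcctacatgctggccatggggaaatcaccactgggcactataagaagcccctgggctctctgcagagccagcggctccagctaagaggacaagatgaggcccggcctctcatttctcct
TNFSF10: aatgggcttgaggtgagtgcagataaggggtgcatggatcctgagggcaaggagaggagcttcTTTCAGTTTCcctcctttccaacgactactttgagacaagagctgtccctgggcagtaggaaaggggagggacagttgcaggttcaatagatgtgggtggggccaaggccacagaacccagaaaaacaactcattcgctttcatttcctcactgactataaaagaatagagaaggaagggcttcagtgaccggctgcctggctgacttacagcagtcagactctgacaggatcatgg

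The 15 highest genes ranged from 4.30 to at least 8.81 on the log2 scale, and they included UBD, OLFM4, GUCA2A and CTSS. IGFL1, a secreted protein of the insulin-like growth factor-like family, stood at 6.11 (69.3-fold, with signals of 12061 treated and 47.8 control). SERPINA12, the serine protease inhibitor vaspin, stood at 6.06 (66.6-fold). PLA2G2A, a secreted phospholipase of Paneth cells with antibacterial activity, stood at 5.79 (55.4-fold). TFF1, a trefoil peptide of the mucus layer, was saturated at 65471 over 927 and at least 38.0-fold higher. The ETS-family transcription factor SPIB (4.70), the protease CAPN10 (4.63), the tryptophan dioxygenase TDO2 (4.63) and the mucosal keratin KRT13 (4.61) followed. BIRC3, an inhibitor of apoptosis and a classical NF-kB target, stood at 4.38 and SLC2A1, the glucose transporter GLUT1, at 4.30 (19.7-fold).

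These genes differed in which single agent also raised them. With doxycycline alone, IGFL1 stood at 3.95, SERPINA12 at 4.51, PLA2G2A at 4.54, TFF1 at 4.94, KRT13 at 4.31 and SLC2A1 at 3.55. With TNF alone the same genes lay between 0.14 (KRT13) and 0.71 (TFF1). BIRC3 went the other way, at 4.69 with TNF and 0.38 with doxycycline. SPIB (3.04 with doxycycline), CAPN10 (3.04) and TDO2 (3.03) each stood more than 1.5 log2 units higher with both agents, as did IGFL1 and SERPINA12. The combined control spots of SPIB and CAPN10 were also brighter, at 137 against 18.5 and 257 against 155 on the doxycycline array. Those of IGFL1 and SERPINA12 were brighter as well, at 47.8 against 9.77 and 108 against 28.6. No difference between arrays was tested. SAT1, which breaks down polyamines, was chosen for its brightness and reached 44203 over 1873 with both agents (3.71), beside 2.33 with doxycycline and −0.56 with TNF.

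The 15 lowest genes ranged from −2.22 to −3.95. MT4, a metallothionein, was lowest, at 425 treated over 4239 control (15.5-fold lower), beside −2.50 with TNF and −1.72 with doxycycline. CLDN2, a claudin that forms cation pores in leaky epithelia, read 25.8 over 603 (−3.63), beside −4.12 with TNF and −2.27 with doxycycline. NUPR1, a stress-induced transcriptional regulator, read 412 over 2940 (−3.47), and SLC7A5, the large neutral amino acid transporter LAT1, read 796 over 3968 (−3.04). The proline transporter SLC6A20 (−2.71), the regulator of G-protein signalling RGS2 (−2.42), the dipeptidase DPEP1 (−2.32), the ERK phosphatase DUSP6 (−2.28), the secreted protease PRSS23 (−2.24) and the Wnt-pathway receptor LRP4 (−2.23) were also among them. ZDHHC8BP (−2.57), CRYBA4 (−2.56), FAIM2 (−2.41), DOK7 (−2.32) and TNS4 (−2.22, with 2 probes that differed by an SD of 1.63) completed the set. DUSP6 and RGS2 lay within 2-fold of control with TNF (−0.57 and −0.43), and with doxycycline DUSP6 stood at −0.59 and RGS2 at −1.25. FAIM2 turned to 0.29 with the scanner's local background, so its direction is not settled.

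**Figure D3:**
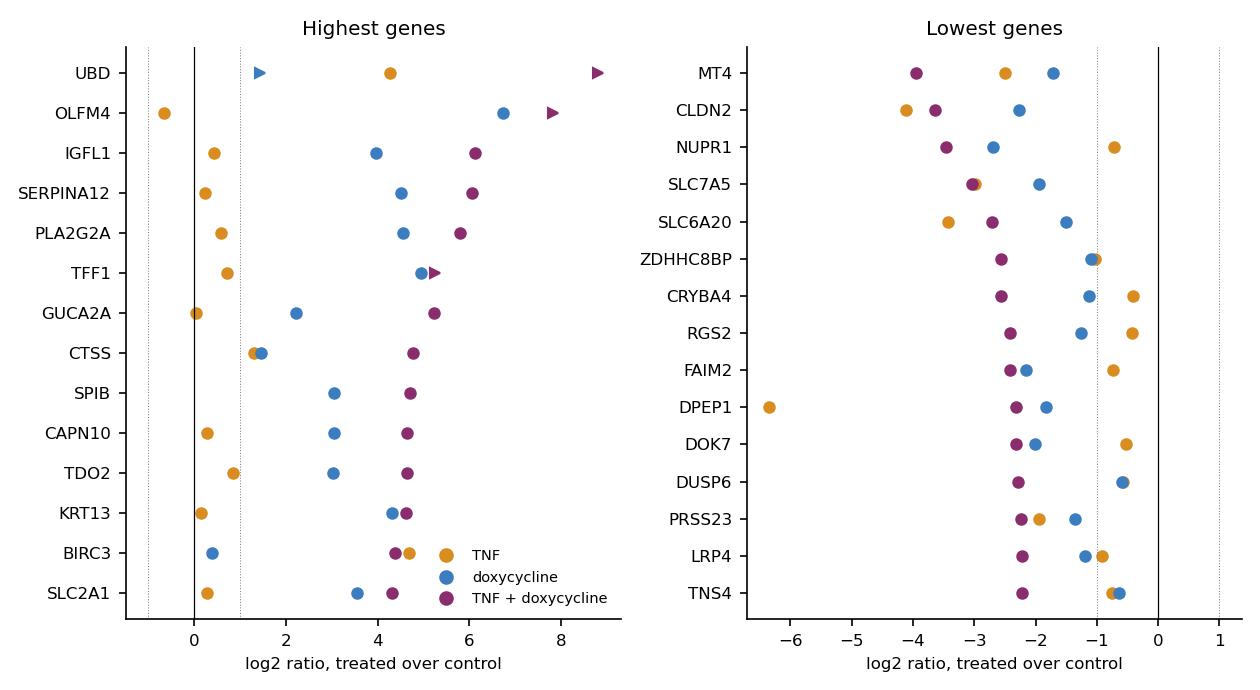
Log2 ratio, treated over control, of the highest and lowest genes of the combined array (purple), with the same genes on the TNF (orange) and doxycycline (blue) arrays. Circles are measured ratios, arrowheads to the right are lower limits, dotted lines mark 2-fold, and SPIB has no TNF point because neither channel was above background there.

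NF-kB subunits and their feedback genes were higher with both agents in 11 of 25 measured members and lower in none, with a median log2 ratio of 0.98 beside a median of 0.00 over all genes. The leading member was BIRC3, at 3467 over 46.7 (4.38). TNFAIP3 encodes A20, which removes ubiquitin chains from the receptor complex, and it read 865 over 18.4, or 8.07-fold (3.01). NFKBIA, the inhibitor IkappaBalpha, read 5828 over 396 (2.91), and NFKBIE, the inhibitor IkappaBepsilon, 1259 over 145 (1.98). Among the subunits, RELB stood at 2.74 and NFKB1 at 1.32, whereas RELA stood at 0.45, short of 2-fold. RELA was dim, at 70.3 over 16.1, so the offset pulls its ratio towards 0. OPTN, a ubiquitin-binding autophagy receptor, stood at 2.45. With TNF alone TNFAIP3 stood at 3.48, NFKBIA at 2.95, RELB at 2.13 and NFKBIE at 0.46, and with doxycycline alone none of the 25 members reached 2-fold, beside 1.14% of all genes in the upward direction.

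Chemokines and their receptors were higher in 9 of 18 measured members and lower in none (median 0.77). CXCL2, a neutrophil chemokine, read 3471 over 60.3 (4.19), and its relatives CXCL1 and CXCL3 stood at 3.01 and 2.62. CCL20, which draws CCR6-bearing lymphocytes and dendritic cells, read 1303 over 7.74 (3.79). CCL2, the monocyte chemokine, read 963 over a control not above background and was at least 12.4-fold higher. ACKR3, a scavenging chemokine receptor, read 913 over 16.9 (3.11). On the single-agent arrays it read 7.82 over 6.63 with TNF (0.06) and 22.3 over 5.59 with doxycycline (0.18). Ratios of signals this dim are pulled towards 0 by the offset, so a change there could be missed. CXCL1, CXCL2 and CXCL3 are closely similar in sequence, so their probes may share signal.

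CXCL8, the neutrophil chemokine interleukin-8, was high with TNF alone, and its normalised ratio was short of 2-fold with both agents. With TNF alone it read 3596 over 24.6, a log2 ratio of 5.22, whereas with both agents it read 93.3 over 22.9, a log2 ratio of 0.51, and with doxycycline 9.28 over 20.7 (−0.42). Its relative CXCL5, named after its values were seen, read 146 over 20.0 with TNF (1.63) and 28.5 over 17.9 with both agents (−0.08). With both agents the signals of CXCL8 and CXCL5 were dim, so the offset pulls their ratios towards 0. A 2-fold change there could be missed. CCL20 was also dimmer with both agents than with TNF, at a treated signal of 1303 against 13811 and log2 ratios of 3.79 and 6.99. CCL2 was the reverse, at 963 with both agents and 67.8 with TNF. These are values of 1 array each, and no difference between them was tested.

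Of the TNF superfamily, 4 of 22 measured members were higher and none lower (median 0.31). LTB, the membrane partner of lymphotoxin, read 2545 over 30.6 (4.21), beside 4.61 with TNF and −0.05 with doxycycline. TNFRSF21, death receptor 6, read 1219 over 38.5 (3.08), beside 1.40 with doxycycline. TNFRSF14, the receptor HVEM, stood at 1.23, and TNFSF10 was described above. Apoptosis regulators were higher in 4 of 23 and lower in 1 (median 0.44). The BH3-only protein BID stood at 1.72, the inflammatory caspases CASP4 and CASP1 at 1.34 and 1.19, and the survival protein MCL1 at 1.01, while BIRC5, survivin, which also acts in mitosis, stood at −1.42. BID turned to −0.09 with the scanner's local background.

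Interferon-stimulated genes were higher in 14 of 45 measured members and lower in none (median 0.58, with 41 of 45 above 0). IFIT3, a cytosolic antiviral protein, read 339 over 6.93 (2.15), beside 0.35 with TNF and 0.39 with doxycycline. It read 23.2 over 11.4 with TNF and 42.9 over 8.17 with doxycycline. The offset pulls ratios of signals this dim towards 0, so a change there could be missed. The exonuclease ISG20 stood at 1.88, the RNA sensors IFIH1 and RIGI at 1.57 and 1.53, TRIM22 at 1.53 and IFIT2 at 1.47. With TNF these were 0.88 (ISG20), 0.87 (IFIH1), 1.45 (RIGI), 0.30 (TRIM22) and 0.17 (IFIT2). TRIM22 and IFIT2 were dim there too, at treated signals of 50.8 and 17.2. With doxycycline none of the 44 members measured there reached 2-fold, beside 1.14% of all genes higher and 0.389% lower on that array. A count of 0 is near those shares for a list of this size. The count depends on the background and scale: 5 of 45 members were higher with the scanner's local background and 24 of 44 in the authors' deposited table. The members varied: OAS1 stood at −0.20, IRF7 at −0.46 and MX1 at 0.58, 3 members named after their values were seen.

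MHC class I and antigen processing genes were higher in 6 of 19 measured members and lower in none (median 0.57). The immunoproteasome subunits PSMB9 and PSMB10 stood at 2.13 and 1.23. B2M, the light chain of class I, read 39381 over 6904 (1.68), the peptide transporter TAP1 1685 over 358 (1.30), and the heavy chains HLA-E and HLA-F stood at 1.21 and 1.12. HLA genes are near-identical in parts, so their probes may share signal. PSMB9 was also higher with TNF (1.80), while B2M stood at 0.56 with TNF and 0.18 with doxycycline. The other higher members were low on the TNF array, at −0.81 (TAP1), −2.31 (PSMB10), −1.26 (HLA-F) and at most −3.28 (HLA-E), and lay between −0.34 and 0.07 with doxycycline. Of the class II and endosomal protease genes, 3 of 14 were higher. These were CTSS, the asparaginyl endopeptidase LGMN (2.01, and 1.01 with doxycycline) and the invariant chain CD74, which read 379 over a control not above background and was at least 5.34-fold higher. CD74 was not above background in either channel with TNF, and read 6.16 in the treated channel with doxycycline.

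Epithelial defence genes were higher in 4 of 27 and lower in 1 (median 0.12). PI3, the protease inhibitor elafin, read 2422 over 42.1 (3.95), beside at least 0.27 with TNF and 0.13 with doxycycline. Its control spot was brighter here than with TNF (2.14) or doxycycline (4.37), and with the median control of the 3 arrays the ratio became 4.85. Its treated signals with TNF and doxycycline were dim, at 12.9 and 17.2, so the offset pulls those ratios towards 0. The cytokines IL32 and IL18 stood at 2.48 and 1.74, and the interleukin-1 receptor antagonist IL1RN at 1.86 with 2 probes that differed by an SD of 2.06. REG4, a secreted lectin of goblet and enteroendocrine cells, stood at −2.17. Prostaglandin genes were higher in 5 of 11. These were PLA2G2A, the prostaglandin E synthase PTGES (668 over 4.07, 3.03), the cyclooxygenase PTGS2 (1.46), the cytosolic phospholipase PLA2G4A (1.45) and the degrading enzyme HPGD (1.20). PTGES was not above background in either channel with TNF, and read 12.2 in the treated channel with doxycycline, a log2 ratio of at least 0.09.

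Promoter windows of NFKBIA and IFIT3 are shown as a known target of each pathway, to be read beside those of UBD and TNFSF10. NFKBIA at chr14:35404700-35404999 on the minus strand holds a kappaB match 81 bases before the start. IFIT3 at chr10:89327747-89328046 on the plus strand holds the same interferon element on the opposite strand 156 and 122 bases before it.
NFKBIA: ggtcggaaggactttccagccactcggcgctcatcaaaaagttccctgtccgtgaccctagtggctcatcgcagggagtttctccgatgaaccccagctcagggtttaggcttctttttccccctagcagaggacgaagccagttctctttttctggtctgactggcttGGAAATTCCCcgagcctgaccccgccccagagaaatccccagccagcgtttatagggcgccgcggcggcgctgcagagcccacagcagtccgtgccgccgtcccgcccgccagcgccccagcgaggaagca
IFIT3: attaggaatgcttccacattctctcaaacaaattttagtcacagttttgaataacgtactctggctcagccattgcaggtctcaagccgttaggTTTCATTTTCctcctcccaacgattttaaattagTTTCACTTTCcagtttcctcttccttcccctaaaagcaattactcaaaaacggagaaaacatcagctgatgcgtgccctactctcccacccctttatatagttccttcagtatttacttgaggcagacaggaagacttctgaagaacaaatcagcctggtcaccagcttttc

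A kappaB match on either strand was present in 10.8% of all 27303 promoter windows, in 12.8% of those of measured genes, in 17.4% of those of the genes at least 2-fold higher and in 18.4% of those at least 2-fold lower. Of the NF-kB list it was present in 10 of 22 windows, and of the chemokine list in 7 of 14, which included all 6 of the higher members with a window. The interferon element was present on either strand in 3.65% of all windows, 3.0% of those of measured genes, 5.56% of the higher and 1.23% of the lower genes. It was present in 20 of 34 windows of the interferon list, and in 7 of 12 windows of that list's higher members. Sites of different motifs overlapped in 0.476% of windows.

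Notch target genes were higher in 6 of 18 measured members and lower in 1 (median 0.56). The repressors HES5, HEYL, HES4 and HES1, which carry the Notch signal onward, read 2518 over 62.2 (3.72), 668 over 11.3 (2.85), 6904 over 645 (2.51) and 835 over 212 (1.00). With doxycycline alone they stood at 3.13, 2.69, 2.41 and 1.35, and with TNF alone at −0.20, 0.01, −0.59 and 0.22. All 4 were thus at least 2-fold higher on both arrays with doxycycline and not on the TNF array. NRARP, which limits NICD activity, stood at 1.48, and OLFM4 was described above. HES6, which opposes HES1, read 221 over 610 (−1.99), beside −3.33 with TNF and −1.27 with doxycycline.

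NOTCH1 itself read 105 over 170 (−0.72), with 2 probes that differed by an SD of 0.93. Whether these probes lie inside the part of NOTCH1 that the construct carries is not stated in the labels or files, so they do not check the transgene. Of the 28 measured receptors, ligands and modifiers, 2 were higher and 1 lower, counts near the shares of all genes (3.1% higher and 2.01% lower). The ligand JAG1 stood at 1.47, beside −1.69 with TNF and 0.17 with doxycycline. The protease ADAM10, which cuts Notch receptors after a ligand has bound, stood at 1.18. The ligand JAG2 stood at −1.24.

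The HES5 window is shown beside that of OLFM4 as a classical Notch target. HES5 at chr1:2530214-2530513 on the minus strand holds GTGGGAA on the opposite strand 224 bases before the start and on the gene's own strand 81 bases before it.
HES5: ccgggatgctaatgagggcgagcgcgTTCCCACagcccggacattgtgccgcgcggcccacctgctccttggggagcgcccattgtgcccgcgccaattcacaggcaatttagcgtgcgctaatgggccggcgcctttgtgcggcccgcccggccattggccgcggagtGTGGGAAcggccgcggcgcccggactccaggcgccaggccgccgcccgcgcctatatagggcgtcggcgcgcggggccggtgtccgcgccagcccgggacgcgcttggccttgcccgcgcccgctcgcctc
GTGGGAA was present in 6.28% of all windows, in 5.71% of those of measured genes, in 5.81% of those of higher genes and 4.92% of those of lower genes, and in 6 of 13 windows of the Notch target list. Among the 6 higher members of that list it was present in 5.

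Goblet and secretory genes went both ways, with 4 of 28 higher and 3 lower (median −0.04, or 0.01 with median centring). TFF1 led the higher members, followed by the kallikrein protease KLK10 (2.92), the membrane mucin MUC13 (1.32) and the pioneer factor FOXA1 (1.03). The gel-forming mucin of goblet cells, MUC2, read 9.60 over 85.0 (−1.48), beside 1.28 with TNF and −1.55 with doxycycline, though with the scanner's local background it came to 0.01. SPINK4, a goblet cell peptide, stood at −1.24 and FOXA2 at −1.01. ATOH1, the transcription factor that commits cells to the secretory lineage and is repressed by HES1, was near background on the array, at 4.06 over 4.59. Of the Paneth cell genes 2 of 11 were higher and 1 lower, namely PLA2G2A, the metalloprotease MMP7 (314 over a control not above background, at least 4.62-fold) and, lower, SPINK4, which is also on the goblet list. Of 19 enteroendocrine and tuft cell genes 0 were at least 2-fold higher and 1, the granule protein VGF, was lower (−2.16).

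Absorptive enterocyte genes were higher in 5 of 31 and lower in none, although their median was only 0.04. Besides GUCA2A these were BEST4, a chloride channel that marks a subset of human colon enterocytes (1438 over 20.0, 3.64), its companion GUCA2B, uroguanylin (1.53), the brush-border peptidase DPP4 (1.70) and the adhesion molecule CEACAM6 (1.24). BEST4 stood at 3.45 with doxycycline and 0.02 with TNF. GUCA2B was 183 over 5.47 with both agents and 26.6 over 5.20 with doxycycline (0.25). The doxycycline signals were dim, so the offset pulls that ratio towards 0 and a change could be missed. CEACAM6 belongs to a family of near-identical genes, and its probe may share signal. Of 14 intestinal transcription factors, 1 was higher, HNF4G (934 over 115, 1.82), a nuclear receptor of enterocytes, beside −1.24 with TNF and 0.52 with doxycycline.

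Stem cell and Wnt target genes were lower in 8 of 23 and higher in 1, with a median of −0.52 (−0.27 with median centring). The single higher member was OLFM4. LGR5, the R-spondin receptor that marks crypt base stem cells, read 62.5 over 237 (−1.89), and SMOC2, a matrix protein of the same cells, 87.1 over 313 (−1.99). The ubiquitin ligases ZNRF3 and RNF43, which remove Wnt receptors and are Wnt targets themselves, stood at −1.66 and −1.21, the MYC partner CDCA7 at −1.37 and the growth factor receptor inhibitor LRIG1 at −1.06. LGR5 stood at −1.43 with TNF and −1.03 with doxycycline. RNF43 came to 0.13 with the scanner's local background. So OLFM4 and LGR5, which both mark stem cells of the human crypt, lay on opposite sides here.

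DNA replication genes were lower in 21 of 40 measured members and higher in none, and all 40 lay below 0, between −0.28 and −1.95 (median −1.02). E2F2, an activator of the S phase programme, read 172 over 485 (−1.95). UHRF1, which carries DNA methylation over to the new strand, read 295 over 706 (−1.86), and MCM2, a subunit of the replicative helicase, 1242 over 2539 (−1.80). CDC6, which loads that helicase, also stood at −1.80. The flap nuclease FEN1 and the helicase subunit MCM5 stood at −1.48 and −1.47. With TNF alone 14 of 40 were lower (median −0.29) and with doxycycline alone 0 of 40 (median −0.14), beside 12% and 0.389% of all genes on those arrays. In RNA of a whole culture, fewer cells of a kind and less RNA per cell cannot be told apart.

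Mitosis genes were lower in 19 of 40 and higher in none (median −0.97). The centromere chaperone HJURP stood at −1.78, CDCA8 and AURKB of the chromosomal passenger complex at −1.57 and −1.51, the ubiquitin-conjugating enzyme UBE2C at −1.50, the kinesin KIFC1 at −1.46 and the midzone protein PRC1 at −1.43. KIFC1 read 552 over 925 with both agents, 1760 over 1084 with TNF (0.09) and 1756 over 908 with doxycycline (0.05), so the control signals were alike and the treated signal differed. CDC25B, named after its value was seen, was the only member above 0 (0.45). MKI67, the usual proliferation marker, was too dim to read, at 9.22 over 8.47. The size of both lists' shift depends on the normalisation: with median centring the median was −0.65 for replication, with 8 of 40 lower, and −0.60 for mitosis, with 7 of 40 lower, and CDCA8 came to 0.03 with the scanner's local background.

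**Figure D4:**
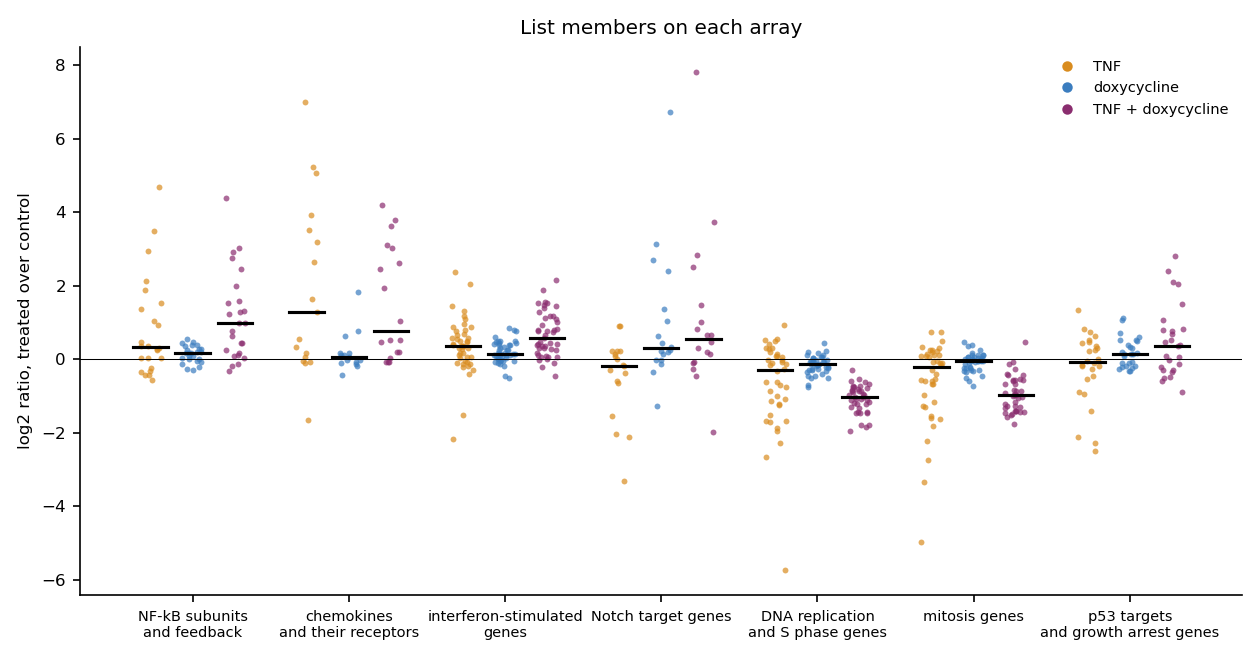
Log2 ratio, treated over control, of the members of 7 gene lists that were measured on the combined array, on the TNF (orange), doxycycline (blue) and combined (purple) arrays, with a bar at each median. The replication and mitosis points of the combined array lie almost wholly below 0, while the higher Notch target points appear on both arrays with doxycycline. Limits are drawn at the limit.

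Promoter windows of CDC6 and KIFC1 are shown for the motifs known from S phase and mitosis genes. CDC6 at chr17:40287629-40287928 on the plus strand holds TTTNNCGC, a form of the E2F site, just after the start site. KIFC1 at chr6:33391573-33391872 on the plus strand holds CCAAT, the NF-Y box, on the opposite strand 75 and 46 bases before it.
CDC6: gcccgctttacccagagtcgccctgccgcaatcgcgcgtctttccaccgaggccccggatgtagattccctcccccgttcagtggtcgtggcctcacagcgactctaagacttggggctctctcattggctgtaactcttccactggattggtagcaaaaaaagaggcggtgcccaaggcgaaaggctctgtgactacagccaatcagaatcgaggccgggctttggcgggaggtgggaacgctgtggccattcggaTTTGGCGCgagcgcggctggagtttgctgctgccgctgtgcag
KIFC1: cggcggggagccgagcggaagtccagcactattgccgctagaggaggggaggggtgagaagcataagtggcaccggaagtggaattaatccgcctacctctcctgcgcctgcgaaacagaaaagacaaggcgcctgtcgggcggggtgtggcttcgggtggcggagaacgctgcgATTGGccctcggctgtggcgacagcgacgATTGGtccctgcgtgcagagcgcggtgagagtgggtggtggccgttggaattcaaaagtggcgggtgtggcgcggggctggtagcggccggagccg
TTTNNCGC was present in 6.90% of all windows, in 9.49% of those of measured genes, in 7.83% of those of higher genes and 16% of those of lower genes. It was present in 22 of 36 windows of the replication list. CCAAT was present in 35.7% of all windows, 36.6% of those of measured genes, 38.1% of the higher and 46.3% of the lower genes. It was present in 26 of 34 windows of the mitosis list.

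Of the p53 target and growth arrest genes, 6 of 26 were higher and none lower (median 0.36), but 10 lay below 0. Among these 10 were the kinase inhibitors CDKN2C (−0.90), CDKN2D (−0.59), CDKN1B (−0.49) and CDKN1C (−0.20), named after their values were seen. CDKN1A, the cyclin-dependent kinase inhibitor p21, read 9911 over 1315 (2.05), beside 0.81 with TNF and 0.71 with doxycycline. CDKN2B, the inhibitor p15, read 318 over 5.44 (2.11). GADD45A, a stress sensor that slows the cycle, read 11686 over 909 (2.79), beside −0.01 with TNF and 1.08 with doxycycline. The antiproliferative proteins BTG2 and BTG1 stood at 2.40 and 1.06 and the kinase PLK2 at 1.51.

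Genes of growth factor signalling were mixed. Of 28 genes listed as ERK feedback and immediate early genes, 3 were higher and 2 lower (median −0.11, or 0.05 with median centring). A place on this list, such as that of PHLDA3, is not evidence that ERK controls the gene. IER5 stood at 2.30, PHLDA3 at 1.27 and the ERK inhibitor SPRED1 at 1.25, while the ERK phosphatase DUSP6 read 572 over 1716 (−2.28) and the ETS factor ETV4 stood at −1.38. Of 13 EGF family genes, the receptor inhibitor ERRFI1 was higher (467 over 44.5, 1.77) and the ligand EREG (−1.30) and LRIG1 lower. EREG was at 1.51 with TNF alone. Of 24 ID and BMP genes, ID4 (1.27) and ID1 (1.17) were higher, and ID2 (−1.48) and BMP7 (−1.05) lower, with ID2 at 0.87 under the scanner's local background.

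Keratins and squamous differentiation genes were higher in 6 of 26 and lower in none (median 0.20). KRT13 was followed by KRT17, a keratin of injured epithelium (3410 over 124, 3.51), the simple-epithelial keratin KRT19 (12373 over 1573, 2.12), and KRT6B, KRT6A and KRT5 at 1.66, 1.51 and 1.48. KRT6A and KRT6B are near-identical, so their probes may share signal. KRT17 stood at 2.85 and KRT19 at 1.42 with doxycycline alone. EPCAM, the epithelial adhesion molecule, read 24759 over 8689 and stood at 0.69, short of 2-fold.

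Tight junction and adhesion genes were higher in 7 of 33 and lower in 2 (median 0.15). The laminin chains LAMA3 and LAMB3, parts of the basement membrane protein laminin-332, read 2181 over 16.3 (4.28) and 1681 over 186 (2.10). The desmosome protein DSP stood at 2.08, the junction protein CGN at 1.43, CTNNB1, beta-catenin, at 1.36 and CTNND1, p120 catenin, at 1.33. Both lower members were claudins, CLDN2 (−3.63) and CLDN3 (−1.05). LAMA3 stood at 2.20 with doxycycline and 0.04 with TNF. Of proteases and their inhibitors, 7 of 28 were higher and 2 lower. The metalloprotease inhibitors TIMP1 (13095 over 958, 2.89) and TIMP3 (2.74) and the protease inhibitor SERPINE2 (2.37) were among the higher, and protein C, PROC (−1.89), and the kallikrein KLK6 (−1.53) were the lower.

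Amino acid transport and ATF4 stress response genes were lower in 7 of 35 and higher in 1 (median −0.45, or −0.08 with median centring). Besides NUPR1, SLC7A5 and SLC6A20, the pseudokinase TRIB3 stood at −1.48, the glutamine transporter SLC1A5 at −1.36 and SLC3A2, the heavy chain that pairs with SLC7A5, at −1.17. The exception was SLC6A14, a broad amino acid transporter, which read 1033 over 5.86 (3.53), beside at least 0.14 with TNF and 0.45 with doxycycline. With doxycycline it read 38.5 over 4.14, and with TNF 8.18 in the treated channel. The offset pulls ratios of signals this dim towards 0, so a change there could be missed. The sugar transporters SLC2A1 and SLC2A5, for glucose and fructose, stood at 4.30 and 3.33, while of the same list of 34 the lactate exporter SLC16A3 (−1.43), the carbonic anhydrase CA9 (−1.12) and the hexokinase HK2 (−1.04) were lower. The median of that list was −0.17, or 0.19 with median centring.

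Of 16 genes of metallothioneins, which bind zinc and copper, and of zinc transporters, 1 was higher and 2 lower (median −0.09). The higher was MT1X at 18153 over 1064 (3.21), and the lower were MT4 (−3.95) and the zinc transporter SLC39A10 (−1.25). The other metallothioneins lay within 2-fold, between −0.74 (MT3) and 0.55 (MT1H). Metallothionein sequences are near-identical, so which member each probe reads is uncertain. Retinoid and tryptophan genes were higher in 4 of 17 and lower in none (median 0.27). Besides TDO2 these were the retinal dehydrogenase ALDH1A1 (2901 over 153, 3.07), the retinoic acid hydroxylase CYP26B1 (402 over 5.27, 2.38) and the retinal reductase DHRS3 (1.58). ALDH1A1 stood at −1.48 with TNF and 1.10 with doxycycline. Of 27 cholesterol and fatty acid synthesis genes, STARD4 (1.16) and SREBF1 (at least 2.22-fold) were higher, and HMGCS1 (−1.43) and ELOVL6 (−1.37) lower.

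With loess, housekeeping lists lay close to the median of all genes. Of 35 ribosomal protein genes 1 was lower, RPS2 (−1.06, 38620 over 45753), and of 37 oxidative phosphorylation genes and 18 unfolded protein response genes none reached 2-fold in either direction. With median centring the ribosomal median moved from −0.01 to 0.38 and the oxidative phosphorylation median from 0.08 to 0.52. The unfolded protein response median moved from 0.04 to 0.36. RPLP1, RPS18 and RPS29, among the 10 brightest genes of the treated channel, stood at −0.24, −0.09 and −0.49 with loess. The part of the loess fit in these values was not tested.

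**Figure D5:**
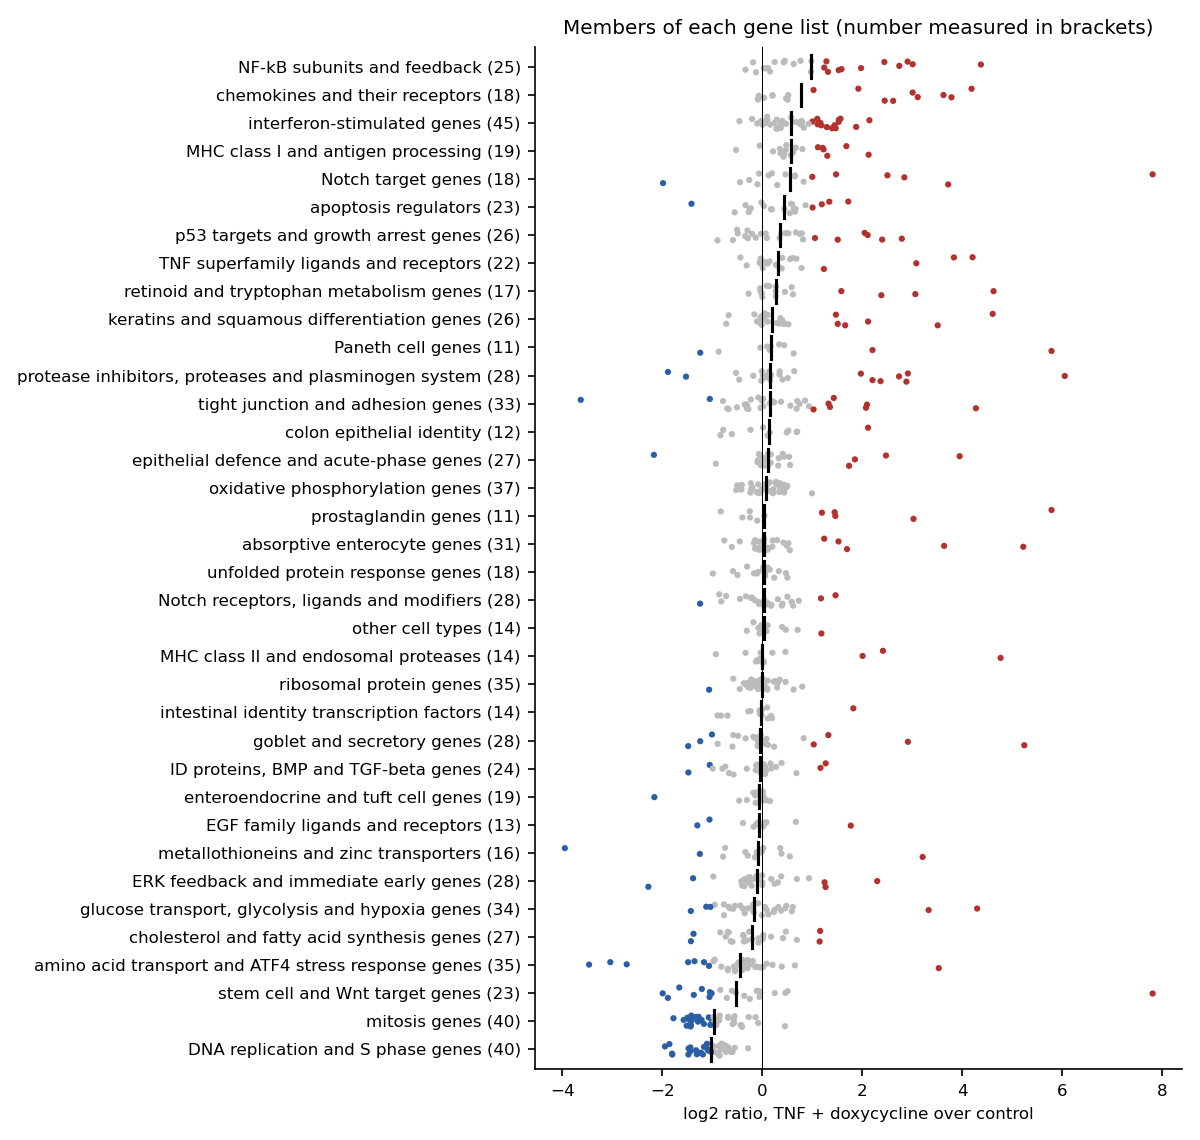
Log2 ratio on the combined array of the members of each of 36 gene lists, ordered by the list's median (black bar), with the number measured in brackets. Red points are members at least 2-fold higher, blue points members at least 2-fold lower and grey points the others. The NF-kB list has the highest median (0.98) and the replication list the lowest (−1.02). This order depends on the processing: in the authors' deposited values the chemokine median was 2.66 and the NF-kB median 1.34.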

How the data were processed

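Total RNA was amplified, labelled with Cy3 (treated) or Cy5 (untreated) and hybridised to 2-colour oligonucleotide arrays, per the labels. The deposited scanner files hold median spot intensity per channel, and per the file headers these combine several scans. The authors deposited log2 ratios too; all 19605 of this array were recomputed within 0.001 as log2 of Cy3 over Cy5, blank-subtracted and median-centred, which settles the direction. The scanner's local background followed spot signal (r = 0.917 and 0.942 across spots) and was used only as an alternative.

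Here the 5%-trimmed mean of 2680 blanks was the background, with normexp (offset 50) and loess in limma 3.58.1 (R 4.3.3), control spots at weight 0. Probes above the 95th percentile of the blanks in at least 1 channel of this array were kept and averaged per gene. A requirement on every array would drop genes seen only with both agents. Spots at 65535 gave limits. Of 24460 probes 20236 had 1 symbol, of which 2899 were updated, and 4224 had none. Tables were made with pandas 2.3.3 and numpy 2.4.6 in Python 3.11.15 and figures with matplotlib 3.10.9.

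The members, lists and motifs were chosen with earlier results of these data known. Named genes were UBD, OLFM4, GUCA2A, CTSS and TNFSF10, the 15 highest and 15 lowest genes, up to 6 members past 2-fold per list and direction (the 2 furthest from 0 where none passed), the 10 brightest treated genes, and NOTCH1, HES1, ATOH1, MUC2, LGR5, TNFAIP3, CXCL8, MKI67, CDKN1A and EPCAM. 1 of the highest genes is not reported here. Others, including NFKB1 and RELA, were named after their values were seen. Of the measured genes, 12350 had a promoter window. The number of arrays limits the precision.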

Additional observations from a re-analysis of the deposited data

How the results depend on the processing

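No paired analysis was possible because there was 1 array per condition, and for the same reason no replicate could be left out. Each of the 12 other settings changed 1 step, except that the deposited values differ in the background correction, the offset, the normalisation and the genes with a value. The 476 higher genes became 982 with median centring and 1214 with the authors' deposited log2 values. The 309 lower genes became 134 with median centring, 192 with the scanner's local background, 468 with a normexp offset of 16 and 785 with the deposited values. Under the other settings both counts stayed within 1.5 times. Which step moved the counts in the deposited values was not tested. With the local background 6 named genes changed sign, to 0.29 (FAIM2), −0.090 (BID), 0.00536 (MUC2), 0.13 (RNF43), 0.033 (CDCA8) and 0.87 (ID2); the cause was not tested. Of 36 list medians under each setting, 411 values moved by less than 0.290, the SD between probes of 1 gene, and 21 by more. With median centring these were MHC class I (0.93), replication (−0.65), mitosis (−0.60), keratins (0.52), tight junction (0.59), glucose (0.19), amino acid (−0.084), cholesterol (0.15), unfolded protein response (0.36), ribosomal (0.38), oxidative phosphorylation (0.52) and colon identity (0.56). With the deposited values they were NF-kB (1.34), chemokines (2.66), interferon (1.11), defence (0.46), stem cell (−0.82), proteases (0.45) and prostaglandin (0.65). Chemokines also came to 1.27 with offset 16 and apoptosis to 0.11 with the local background. Counts of list members past 2-fold that differed by over 1.5 times and reached 4 were as follows. With median centring, 7 of 23 apoptosis, 10 of 26 growth arrest, 5 of 28 ERK and 12 of 33 tight junction genes were higher, and 5 of 23 stem cell, 8 of 40 replication, 7 of 40 mitosis and 4 of 35 amino acid genes lower. With the local background, 5 of 45 interferon and 4 of 37 oxidative phosphorylation genes were higher, and 5 of 23 stem cell and 12 of 40 replication genes lower. With the deposited values, 7 of 23 apoptosis, 24 of 44 interferon and 5 of 28 Notch receptor genes were higher, and 4 of 28 Notch receptor, 6 of 26 goblet, 6 of 24 ID and BMP and 5 of 32 glucose genes lower. Of the named genes' values 1682 moved by less than 0.290 and 439 by more, besides the 6 above. Dim controls or saturated treated spots limit the ratios of 609 genes to a lower bound and dim treated spots those of 138 to an upper bound.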

Other observations

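Of the 4224 probes without a gene symbol, 3322 were above background on the combined array. Past 2-fold, 33 of them were higher and 19 lower, with log2 ratios from −2.94 to 3.14. These probes were not named and entered no count of genes.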
